A study of Arabidopsis thaliana with 16 samples.

Results

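In petals of Arabidopsis thaliana, 25 transcripts showed little or no rise at dusk over the morning in 35S:CO, a line that overexpresses CONSTANS (CO), but were higher at dusk in the mutant co-10 and in the wild type Col-0. They were chosen by their measured values. For each locus, D is the mean of log2(FPKM + 1) at ZT16 minus the mean at ZT4 over 2 petal libraries each, where FPKM is the authors' length- and depth-scaled level and ZT counts hours from lights on. A nuclear locus was taken when D was at least 2 in co-10 and in Col-0 and below 0.5 in 35S:CO. Of 32548 nuclear loci among 32833 in all, 471 had a D of at least 2 in both co-10 and Col-0, and the 25 are 5.31% of these 471. They include enzymes and proteins of the cell wall, a sucrose transporter, nitrilase 2, an alternative oxidase, pathogen-, wound- and aphid-responsive proteins, and proteins with no known function.

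CO is a B-box zinc finger transcription factor that is stable in the light at the end of a long day and switches on the florigen gene FT in leaves. Petals are short-lived organs that grow by cell expansion, which needs loosening and rebuilding of the wall polysaccharides, and that withdraw sugars and nutrients when they age. Many plant transcripts peak in the evening under control of the circadian clock, light or sugar supply, and defence and wound transcripts can also follow the time of day.

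The series has 16 libraries of polyadenylated RNA in 8 groups of 2 biological replicates, all from plants in long days of 16 h light and 8 h dark. Petals came from 35S:CO, from co-10, a CO null mutant, and from Col-0, each at ZT16, when the lights go off, and at ZT4. Whole seedlings aged 10 days came from 35S:CO and from Col-0 at ZT16 only. In 35S:CO the viral 35S promoter drives CO in most tissues at all hours, unlike the promoter of CO itself. The number of transgenic lines and plants behind a library and the age of the flowers were not given in the sources used here.

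CO stood at 315 and 297 FPKM in 35S:CO seedlings, against 1.91 and 2.10 FPKM in Col-0 seedlings. In petals it lay between 414 and 625 FPKM in the 4 libraries of 35S:CO, between 0.0256 and 0.260 FPKM in those of co-10 and between 0.0376 and 0.703 FPKM in those of Col-0, so the level of CO separated 35S:CO from both others and did not separate co-10 from Col-0. FT lay between 111 and 813 FPKM in 35S:CO petals and between 0 and 4.49 FPKM in the petals of co-10 and Col-0. Depth, read from the steps between low values, was about 56000000 to 63300000 reads in seedlings and 5200000 to 22000000 in petals, with co-10 ZT4 replicate 2 lowest; 17 of the 25 transcripts were listed at 0 in that library and 11 in co-10 ZT4 replicate 1. Between 3.82% and 48.8% of the FPKM of a petal library came from ribosomal RNA, a share that also differed between replicates.

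Among the 471 loci, D in 35S:CO had a median of 1.84, against 2.77 in co-10 and 2.88 in Col-0. It was at least 2 for 200 of them in 35S:CO, between 0.5 and 2 for 246 and below 0.5 for the 25, of which 9 were below 0. The 25 are the low end of a continuous spread and not a separate cluster. With the genotypes exchanged in the same rule, 6 loci had a D of at least 2 in 35S:CO and co-10 and below 0.5 in Col-0, and 4 had it in 35S:CO and Col-0 and not in co-10. How many loci had a D of at least 2 in each exchanged pair was not counted. The 6 and 4 therefore lack a base like the 471 and cannot be weighed against the 25. The loci nearest to the 35S:CO threshold were CML38 at 0.45, PHT3;2 at 0.43 and AT3G13950 at 0.42 inside it, and AT5G46871, the lipoxygenase gene LOX4 and AT3G04210, each at 0.51, outside it. At the threshold of 2 the nearest inside were MPL1 with a D of 2.02 in Col-0, AER with 2.07 in Col-0 and AT3G21100 with 2.07 in co-10. Just outside lay AT1G08890, with a D of 1.997 in Col-0, AT5G25930, with 1.996 in co-10, and AT5G50560, with 1.97 in Col-0.

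**Figure D1:**
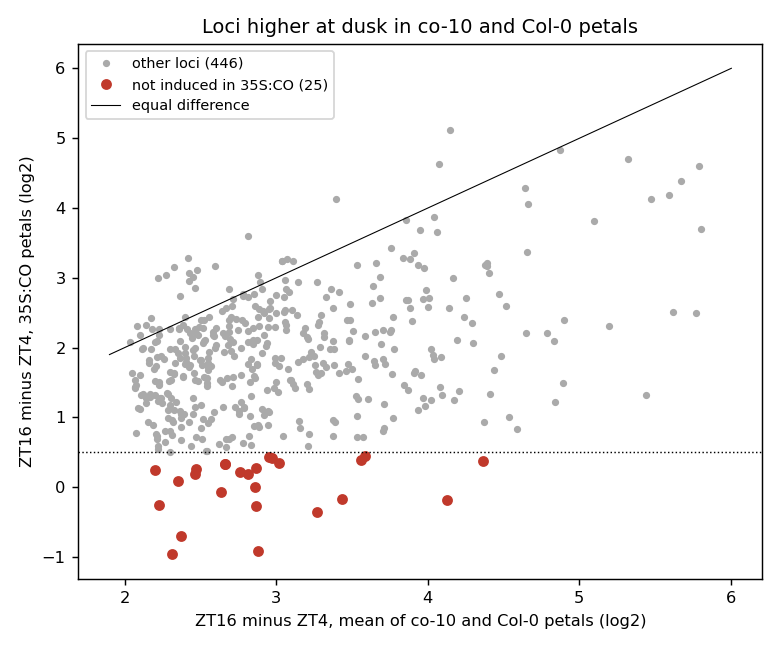
D in 35S:CO petals (y axis) against the mean D of co-10 and Col-0 petals (x axis), both as log2 differences of FPKM + 1, for the 471 loci with a D of at least 2 in both; red points are the 25 transcripts below the dotted line at 0.5. Most points lie under the line of equal difference, and the red points continue the lower edge of the grey ones.

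The 4 transcripts with the largest dusk difference, by the smaller of their D in co-10 and Col-0, were NIT2, AT1G27020, CML38 and SUC1. Their promoters are shown as a description. The transcripts moved alike in petals because the rule chose them by that pattern, which does not show shared control. Each line has the 250 bases before the annotated start, 5′ to 3′ on the strand of the gene, read from the TAIR10.1 assembly (RefSeq). Capitals mark a W-box (TTGACC, bound by WRKY factors) or a G-box (CACGTG, bound by bHLH and bZIP factors) on either strand.
NIT2, chr3:15982949-15983198, plus strand: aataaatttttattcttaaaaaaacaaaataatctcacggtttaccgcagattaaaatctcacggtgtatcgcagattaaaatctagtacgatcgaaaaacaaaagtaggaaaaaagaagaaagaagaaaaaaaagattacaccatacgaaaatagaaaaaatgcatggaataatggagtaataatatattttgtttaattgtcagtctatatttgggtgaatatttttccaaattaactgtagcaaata
AT1G27020, chr1:9378154-9378403, plus strand: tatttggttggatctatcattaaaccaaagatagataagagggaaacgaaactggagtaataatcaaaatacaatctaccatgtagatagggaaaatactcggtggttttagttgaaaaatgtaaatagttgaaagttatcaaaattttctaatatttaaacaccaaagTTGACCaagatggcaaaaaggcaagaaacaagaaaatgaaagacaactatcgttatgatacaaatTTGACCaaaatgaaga
CML38, chr1:28768139-28768388, minus strand: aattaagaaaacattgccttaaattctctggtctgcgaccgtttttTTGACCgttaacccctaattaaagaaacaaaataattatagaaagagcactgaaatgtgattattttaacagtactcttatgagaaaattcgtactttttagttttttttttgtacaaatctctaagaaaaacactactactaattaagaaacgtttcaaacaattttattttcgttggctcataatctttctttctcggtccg
SUC1, chr1:27053780-27054029, plus strand: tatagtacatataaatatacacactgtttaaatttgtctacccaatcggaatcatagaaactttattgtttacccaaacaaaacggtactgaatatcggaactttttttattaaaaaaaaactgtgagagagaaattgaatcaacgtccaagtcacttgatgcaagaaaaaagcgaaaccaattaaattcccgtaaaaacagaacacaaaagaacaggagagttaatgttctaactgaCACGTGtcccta
None of the motifs searched was in the NIT2 window. AT1G27020 had W-boxes whose first bases lay 81 and 16 bases before the start, CML38 had a W-box 204 bases before it, and SUC1 had a G-box 12 bases before it. None of the 4 windows overlapped an exon of another gene.

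Across the promoters of all 25, a W-box was found in 6 of 25 (24.0%), against 12.2% of 27443 promoters of the same length. The ABRE core (ACGTG, which the G-box contains, bound by bZIP factors of abscisic acid responses) was in 10 of 25 (40.0%) and in 22.9% of all. CCACA, the core bound by CO complexes, was in 10 of 25 (40.0%) and in 28.4% of all. Of the motifs bound by clock factors, the evening element (AAAATATCT) was in 1 of 25 (4.0%) and 2.36% of all, and the CCA1-binding site (AAAAATCT) in 2 of 25 (8.0%) and 6.69% of all. The G-box was in 2 of 25 (8.0%) and 6.49% of all, and the sugar response element TATCCA in 4 of 25 (16.0%) and 13.6% of all. These are matches of letters on either strand and say nothing of binding.

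NIT2 (AT3G44300, chr3:15983199-15985535) encodes a nitrilase, an enzyme that can convert indole-3-acetonitrile to the auxin indole-3-acetic acid, and had the highest level of the 25. It stood at 38.2 and 36.8 FPKM at ZT16 and at 21.6 and 83.2 FPKM at ZT4 in 35S:CO petals. In co-10 it stood at 163 and 505 FPKM at ZT16 against 21.7 and 12.5 FPKM at ZT4, and in Col-0 at 251 and 264 FPKM against 14.6 and 11.5 FPKM. At ZT16 both 35S:CO libraries were below all 4 others, and at ZT4 the groups overlapped, with 35S:CO replicate 2 above every other ZT4 library. D was -0.18 in 35S:CO, 4.04 in co-10 and 4.21 in Col-0. In bulk petals, fewer cells of a type and less RNA per cell cannot be told apart, here and in every result that follows. A related nitrilase gene, NIT3, was chosen for comparison after these values were seen; its D was 2.51 in 35S:CO, 5.69 in co-10 and 5.55 in Col-0. For NIT1, the most abundant of the 3, D was 0.70 in 35S:CO, 0.82 in co-10 and 0.85 in Col-0. Of the 75-base stretches of the NIT2 transcript, 2.05% also occur in NIT1, so a small part of its reads could be assigned to either.

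SUC1 (AT1G71880, chr1:27054030-27056464) encodes a sucrose-proton symporter of the plasma membrane, known for sugar uptake in pollen. It stood at 10.0 and 10.3 FPKM at ZT16 and at 9.38 and 5.98 FPKM at ZT4 in 35S:CO. Its level in co-10 was 29.97 and 19.9 FPKM at ZT16 against 5.06 and 0 FPKM at ZT4, and in Col-0 50.9 and 36.2 FPKM against 2.29 and 2.23 FPKM. Its 35S:CO libraries lay between the others on both sides, below all 4 at ZT16 and above all 4 at ZT4. The phloem-loading sucrose transporter gene SUC2 had a D of 0.41 in 35S:CO, 0.39 in co-10 and 0.25 in Col-0.

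AT1G76520 (chr1:28714765-28717910), annotated as an auxin efflux carrier family protein, stood at 0.439 and 1.67 FPKM at ZT16 and at 0 and 1.62 FPKM at ZT4 in 35S:CO. At ZT16 it reached 7.80 and 14.3 FPKM in co-10 and 17.1 and 13.8 FPKM in Col-0. AT3G47800 (chr3:17634804-17637204) encodes a galactose mutarotase-like protein, of a family that interconverts the ring forms of hexoses. At ZT16 it stood at 2.23 and 4.86 FPKM in 35S:CO, 26.6 and 9.63 FPKM in co-10 and 20.2 and 13.7 FPKM in Col-0. For both, the 35S:CO libraries at ZT16 lay under those of the other genotypes and close to or within the range of their ZT4 libraries.

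Proteins of the cell wall made up 4 of the 25. PMEPCRA (AT1G11580, chr1:3888610-3890824) is a pectin methylesterase, which removes methyl groups from pectin. XTH25 (AT5G57550, chr5:23304782-23306440) belongs to the enzymes that cut and rejoin xyloglucan chains, CSLE1 (AT1G55850, chr1:20876440-20879482) to the cellulose synthase-like glycosyltransferases and EXLB1 (AT4G17030, chr4:9581562-9583290) to the expansin superfamily. D of the 4 ran from -0.92 to 0.35 in 35S:CO, from 2.39 to 3.51 in co-10 and from 2.21 to 3.65 in Col-0.

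EXLB1 was listed at 0 in all 4 libraries of 35S:CO. At ZT16 it stood at 6.40 and 16.6 FPKM in co-10 and at 2.95 and 4.43 FPKM in Col-0, and it was listed at 0 in the 4 libraries of both at ZT4. Its D of 3.51 in co-10 and 2.21 in Col-0 therefore depends on the added 1 FPKM. XTH25 stood at 2.07 and 4.90 FPKM at ZT16 and at 4.59 and 10.6 FPKM at ZT4 in 35S:CO. Levels in co-10 reached 33.4 and 18.0 FPKM at ZT16 against 5.84 and 0 FPKM at ZT4, and in Col-0 105 and 21.9 FPKM against 6.24 and 9.83 FPKM. Its Col-0 replicates at ZT16 differed widely, yet both were above all libraries of 35S:CO. The neighbouring gene of the same family, XTH22 (TCH4), went the other way, with a D of -1.18 in 35S:CO, -2.22 in co-10 and -1.89 in Col-0, and XTH24 had a D of -0.52 in 35S:CO, -1.46 in co-10 and -1.42 in Col-0.

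CSLE1 stood at 1.28 and 1.52 FPKM at ZT16 and at 0.486 and 1.37 FPKM at ZT4 in 35S:CO. In co-10 it stood at 19.9 and 13.0 FPKM at ZT16 against 2.34 and 2.19 FPKM at ZT4, and in Col-0 at 21.0 and 18.3 FPKM against 0.343 and 1.01 FPKM. No 35S:CO library came near the ZT16 libraries of the other genotypes. PMEPCRA was less regular: it stood at 5.68 and 6.83 FPKM at ZT16 in 35S:CO, 15.8 and 37.0 FPKM in co-10 and 43.6 and 16.8 FPKM in Col-0. At ZT4 its levels were 2.65 and 7.95 FPKM in 35S:CO, 2.84 and 3.16 FPKM in co-10 and 1.35 and 7.49 FPKM in Col-0, so the genotypes overlapped.

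Proteins of mitochondria and of redox or oxidative metabolism were another 4, with D from -0.96 to 0.43 in 35S:CO, from 2.55 to 3.01 in co-10 and from 2.07 to 2.90 in Col-0. AOX1D (AT1G32350, chr1:11666886-11668690) is an alternative oxidase, which passes electrons of the mitochondrial chain straight to oxygen. In 35S:CO it was at 0 in each library at ZT16 and at 0 and 1.65 FPKM at ZT4. Its level was 2.88 and 7.83 FPKM in co-10 and 2.46 and 5.11 FPKM in Col-0 at ZT16, and it was listed at 0 in all 4 of their ZT4 libraries. AOX1A, a more abundant gene of its family, had a D of 0.92 in 35S:CO, 1.03 in co-10 and 1.28 in Col-0. AOX1D was thus listed at 0 in all petal libraries outside the dusk samples of co-10 and Col-0 except 35S:CO ZT4 replicate 2.

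AER (AT5G16970, chr5:5575973-5578086) is an alkenal reductase, which detoxifies reactive carbonyls formed from oxidised lipids. It stood at 4.07 and 2.07 FPKM at ZT16 and at 3.68 and 11.7 FPKM at ZT4 in 35S:CO. Its level in co-10 was 10.4 and 23.2 FPKM at ZT16 against 2.85 and 1.06 FPKM at ZT4, and in Col-0 15.3 and 15.2 FPKM against 1.52 and 4.97 FPKM. Its D of -0.96 in 35S:CO was the lowest of the 25; 35S:CO replicate 2 was the highest of the ZT4 libraries and the lowest of the ZT16 libraries. Of its 75-base stretches, 2.93% also occur in AT5G17000. PHT3;2 (AT3G48850, chr3:18114526-18116569), a mitochondrial phosphate carrier, stood at 1.85 and 1.41 FPKM at ZT16 in 35S:CO, 3.91 and 12.2 FPKM in co-10 and 5.44 and 7.62 FPKM in Col-0. At ZT4 it stood at 0.801 and 1.10 FPKM in 35S:CO and was listed at 0 in the 4 libraries of the other genotypes. The cytochrome P450 gene CYP71B7 (AT1G13110, chr1:4467094-4469033) stood at 0 and 0.888 FPKM at ZT16 in 35S:CO, 7.36 and 4.84 FPKM in co-10 and 5.78 and 3.54 FPKM in Col-0, and was listed at 0 at ZT4 in all 4 libraries of co-10 and Col-0. PHT3;1, the abundant relative of PHT3;2, had a D of -0.02 in 35S:CO, 0.29 in co-10 and 0.50 in Col-0.

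Proteins grouped here under defence and stress were 6 of the 25. Their D ran from -0.36 to 0.45 in 35S:CO, from 2.20 to 3.59 in co-10 and from 2.02 to 3.59 in Col-0. The annotations of SCRL7 and AT1G72060, which are among the 6, name no role in defence or stress. CML38 (AT1G76650, chr1:28766750-28768138) is a calmodulin-like calcium sensor known to respond to wounding and low oxygen. It stood at 1.80 and 2.83 FPKM at ZT16 and at 1.65 and 1.16 FPKM at ZT4 in 35S:CO. Levels in co-10 reached 15.4 and 43.8 FPKM at ZT16 against 1.35 and 1.16 FPKM at ZT4, and in Col-0 20.3 and 30.5 FPKM against 1.27 and 1.04 FPKM. The 8 libraries outside the dusk samples of co-10 and Col-0 all lay within a narrow low range. Its relative CML37 stayed under 1 FPKM in every petal group mean.

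PR4 (AT3G04720, chr3:1285425-1286760), a chitin-binding pathogenesis-related protein, stood at 6.76 and 3.52 FPKM at ZT16 and at 4.56 and 8.09 FPKM at ZT4 in 35S:CO. In co-10 it stood at 19.2 and 21.5 FPKM at ZT16 against 5.09 and 0.338 FPKM at ZT4, and in Col-0 at 30.5 and 10.9 FPKM against 1.24 and 2.33 FPKM. MPL1 (AT5G14180, chr5:4571294-4574679), a lipase known to limit aphids, stood at 1.03 and 0.169 FPKM at ZT16 in 35S:CO, 5.65 and 9.38 FPKM in co-10 and 6.84 and 6.36 FPKM in Col-0. For both, 35S:CO lay under the other genotypes at ZT16 and overlapped them at ZT4. AT1G72900 (chr1:27432178-27433782), with a TIR domain as in immune receptors, stood at 3.87 and 3.60 FPKM at ZT16 in 35S:CO, 11.9 and 17.37 FPKM in co-10 and 18.3 and 23.1 FPKM in Col-0.

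The last members of this group overlap other genes on the opposite strand, and whether the counting used strand was not given in the sources used here. SCRL7 (AT1G60989, chr1:22462160-22462721), a small cysteine-rich protein related to the pollen self-incompatibility ligand SCR, lies inside AT1G60990 over all 562 of its bases. In 35S:CO it was at 0 in each library at ZT16, and it stood at 3.52 and 3.70 FPKM in co-10 and 4.41 and 3.17 FPKM in Col-0. AT1G60990 had a D of -0.19 in 35S:CO, 1.38 in co-10 and 0.19 in Col-0. AT1G72060 (chr1:27118177-27119011), annotated as a serine-type endopeptidase inhibitor, shares 391 bases with AT1G72070. It stood at 0.836 and 0 FPKM at ZT16 in 35S:CO, 5.97 and 9.54 FPKM in co-10 and 12.4 and 14.5 FPKM in Col-0, while D of AT1G72070 was 0.82 in 35S:CO, 1.96 in co-10 and 0.48 in Col-0. Reads of each pair may be shared, and D of the neighbours was larger in co-10 than in Col-0.

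The remaining 7 are a transcription factor, proteins known by a domain and proteins with no known function. HB40 (AT4G36740, chr4:17314453-17316441) is a homeodomain-leucine zipper factor known from the control of dormant axillary buds through abscisic acid. It stood at 3.87 and 2.53 FPKM at ZT16 in 35S:CO, 9.69 and 27.6 FPKM in co-10 and 28.1 and 8.40 FPKM in Col-0. At ZT4 it stood at 3.27 and 1.80 FPKM in 35S:CO, 9.16 and 0 FPKM in co-10 and 2.36 and 1.58 FPKM in Col-0. HB40 was the exception among the 25 in that its dusk and morning libraries of co-10 and Col-0 overlapped. AT3G21100 (chr3:7398959-7402525), an RNA-binding protein, stood at 7.48 and 6.52 FPKM at ZT16 in 35S:CO, 25.5 and 30.1 FPKM in co-10 and 33.5 and 23.3 FPKM in Col-0.

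AT1G27020 (chr1:9378404-9380790), with no function in its annotation, had the largest D of the 25, 4.83 in Col-0. It was at 0 and 0.681 FPKM at ZT16 in 35S:CO, 32.2 and 5.70 FPKM in co-10 and 38.9 and 19.4 FPKM in Col-0, and was listed at 0 in all 6 morning libraries. AT4G27740 (chr4:13839038-13839842), a Yippee family zinc-binding protein, stood at 6.79 and 3.36 FPKM at ZT16 and at 6.20 and 4.97 FPKM at ZT4 in 35S:CO. In co-10 petals it was at 10.0 and 18.3 FPKM at ZT16 and listed at 0 at ZT4, and in Col-0 it stood at 53.2 and 22.2 FPKM at ZT16 against 3.91 and 2.99 FPKM at ZT4. Its 35S:CO libraries were below all 4 others at ZT16 and above all 4 at ZT4. AT2G28130 (chr2:11988358-11991617), annotated as an actin-related protein 2/3 complex subunit-like protein, stood at 2.68 and 3.58 FPKM at ZT16 in 35S:CO, 6.55 and 7.87 FPKM in co-10 and 11.1 and 9.24 FPKM in Col-0.

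AT3G13950 (chr3:4603885-4605513), annotated with ankyrin repeats, and AT3G51660 (chr3:19163995-19165322), a relative of the mammalian cytokine MIF, had a D below 0.5 in 35S:CO in another way. AT3G13950 stood at 11.5 and 7.73 FPKM at ZT16 and at 9.00 and 5.12 FPKM at ZT4 in 35S:CO. In co-10 petals it was at 2.41 and 7.04 FPKM at ZT16 and listed at 0 at ZT4, and in Col-0 it stood at 12.8 and 11.3 FPKM at ZT16 against 0.216 and 0 FPKM at ZT4. AT3G51660 stood at 7.80 and 3.73 FPKM at ZT16 and at 4.28 and 4.82 FPKM at ZT4 in 35S:CO, at 4.71 and 12.5 FPKM at ZT16 in co-10 and at 15.4 and 6.92 FPKM at ZT16 in Col-0. In 35S:CO the morning levels of both were close to its dusk levels and above every morning library of co-10 and Col-0, and their 35S:CO libraries overlapped those of the other genotypes at ZT16.

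**Figure D2:**
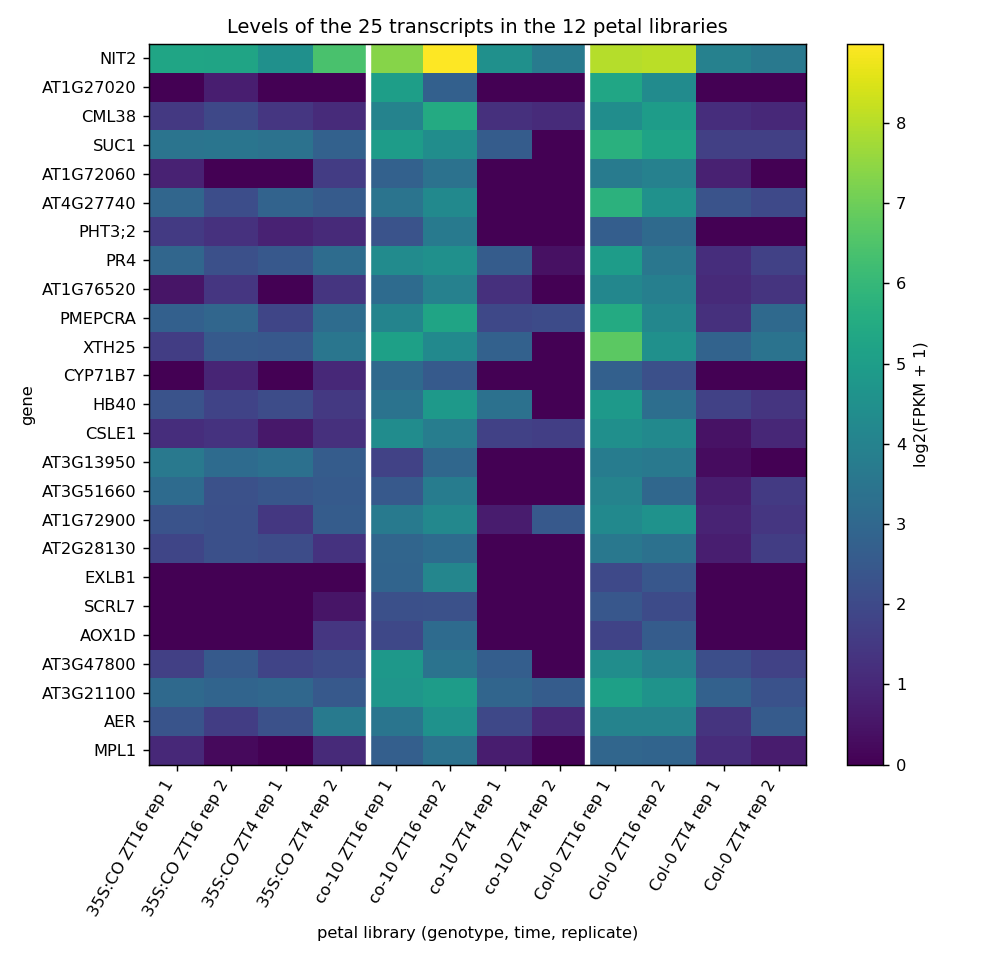
Level of each of the 25 transcripts (rows, ordered by the smaller D of co-10 and Col-0) in each of the 12 petal libraries (columns, by genotype, time and replicate), as log2(FPKM + 1). The dusk columns of co-10 and of Col-0 stand out, and the 4 columns of 35S:CO look alike in most rows.

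By the mean of its 4 libraries, 35S:CO lay nearer to the morning level of co-10 and Col-0 for 22 of the 25 and nearer to their dusk level for 3: SUC1, AT3G13950 and AT3G51660. At ZT16 both 35S:CO libraries were below all 4 of co-10 and Col-0 for 23 of the 25. This was so for 13.4% of 17876 genes tested in petals, but nothing can be read from the comparison because the rule used these libraries. At ZT4 both 35S:CO libraries were above all 4 others for 5, namely SUC1, AT3G13950, PHT3;2, AT3G51660 and AT4G27740, against a background of 6.34%, and for the other 20 the groups overlapped. These positions describe values that the rule used and do not test the name "not induced". AT3G13950 and AT3G51660 overlapped the dusk libraries of the others at ZT16 and stood above their morning libraries at ZT4.

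**Figure D3:**
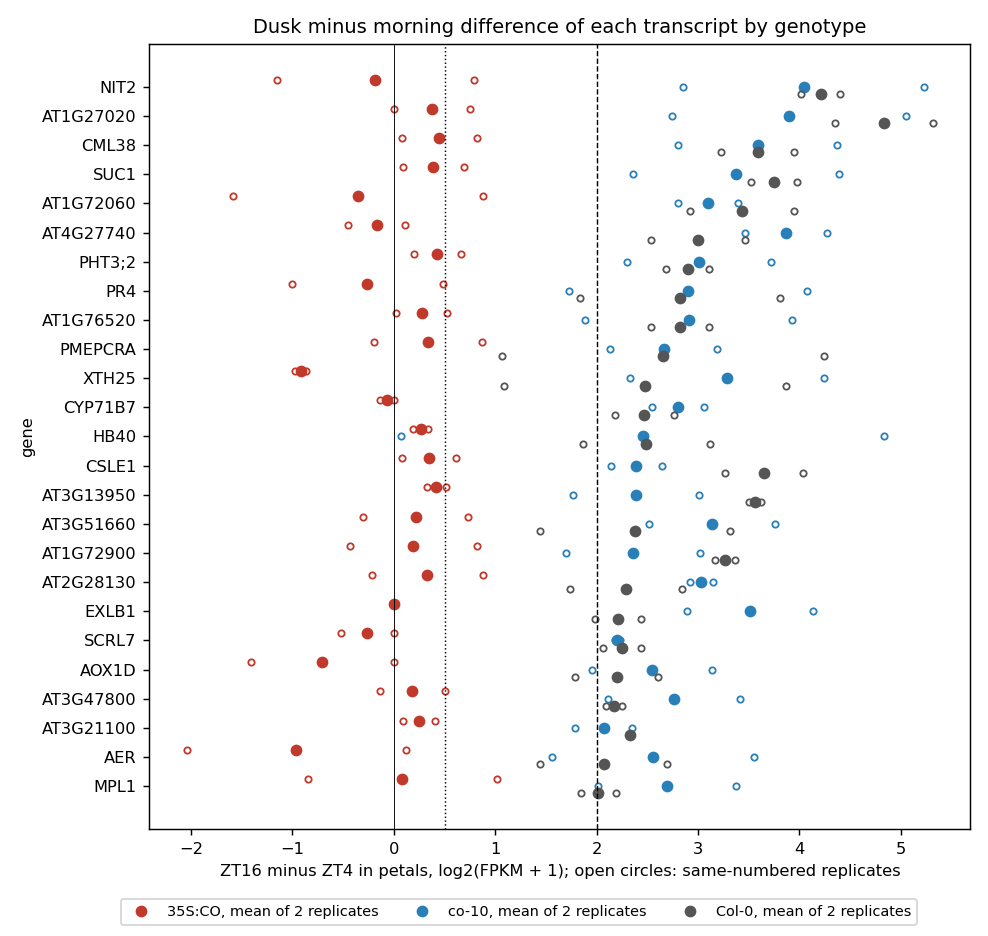
D of each of the 25 transcripts (rows) in petals of 35S:CO (red), co-10 (blue) and Col-0 (dark grey), on the log2(FPKM + 1) scale; filled points are means of 2 replicates, open points pair the replicates of the same number, and the dotted and dashed lines mark 0.5 and 2. The open points spread widely in each genotype, and in 10 of 25 rows both red ones lie below 0.5.

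The replicates differed. Taken for each replicate number alone, D was below 0.5 in both replicates of 35S:CO for 10 of the 25, at least 2 in both of co-10 for 17 and at least 2 in both of Col-0 for 15. Applied to replicate 1 alone, the rule chose 23 loci, 9 of them among the 25, and applied to replicate 2 alone it chose 93, with 12 of the 25. In replicate 2, which had no part in their choice, the 23 loci had a median D of 0.75 in 35S:CO, 2.93 in co-10 and 2.26 in Col-0, and D was lowest in 35S:CO for 22 of them, as for 29.9% of all loci compared. The 93 loci in turn had a median D of 1.02 in 35S:CO, 1.51 in co-10 and 2.44 in Col-0 in replicate 1, with 35S:CO lowest for 58, as for 35.3% of all. The median D of 35S:CO was the lowest of the 3 genotypes in both cases but was above 0.5, and co-10 and Col-0 changed places. Most of all loci did not rise at dusk. Among the 471 that did, D was also lower in 35S:CO, with a median of 1.84 against 2.77 in co-10 and 2.88 in Col-0. The shares of all loci therefore cannot show that the chosen loci differ from other loci that rise at dusk.

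With 1 library left out at a time, the rule chose 23 to 47 loci and kept 18 to 25 of the 25. CYP71B7, SCRL7, AT1G72060 and AT4G27740 were kept in all 12 of these runs. Without 35S:CO ZT4 replicate 1 it chose 47 loci and without 35S:CO ZT16 replicate 1 it chose 41. Without the shallow co-10 ZT4 replicate 2 it chose 23, of which 20 were among the 25.

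Petals can carry pollen and parts of anthers, and the summed level of 36 pollen and anther marker genes moved with time and genotype. Their sum was 2556 to 4412 FPKM at ZT16 and 2381 to 2941 FPKM at ZT4 in 35S:CO. It was 6072 to 10616 FPKM at ZT16 and 5361 to 5774 FPKM at ZT4 in co-10, and 6005 to 7250 FPKM at ZT16 and 3092 to 3570 FPKM at ZT4 in Col-0. The most abundant, the pollen pectin methylesterase gene VGD1, ran from 429 to 2833 FPKM over the 12 petal libraries. Between 9 and 12 of the 36 were listed at 0 in a petal library, and 9 of them in all 12, among them the tapetum genes EXL4, EXL6, MS2 and SHT. The part of pollen in the result was not tested.

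The 13 petal markers summed to 2585 to 2988 FPKM at ZT16 and 2406 to 3158 FPKM at ZT4 in 35S:CO, to 1648 to 1929 FPKM at ZT16 and 2862 to 2993 FPKM at ZT4 in co-10, and to 1596 to 1768 FPKM at ZT16 and 2775 to 3471 FPKM at ZT4 in Col-0. At most 2 of them were listed at 0 in any petal library, as the label of the tissue has it. The petal marker sums were thus lower at dusk than in the morning in co-10 and Col-0, while in 35S:CO both times overlapped; their part in the result was not tested either. The 13 carpel, ovule and seed markers summed to 0 to 13.7 FPKM in petals, with 8 to 13 of them listed at 0 in a library, among them the seed storage protein genes SESA1, SESA3, CRA1 and CRU3 in all 12.

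**Figure D4:**
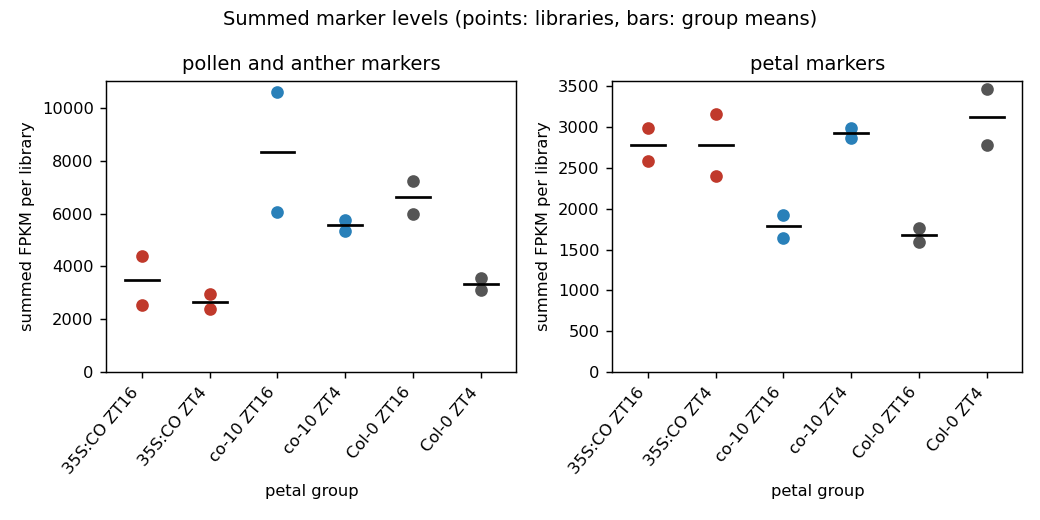
Summed FPKM of 36 pollen and anther markers (left) and 13 petal markers (right) in each petal library (points), by genotype and time, with group means (bars). At ZT16 the pollen and anther sums of 35S:CO lie below those of co-10 and Col-0 and its petal marker sums lie above them.

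In seedlings at ZT16, which had no part in the choice of the 25, 6 of them rose and 2 fell in 35S:CO relative to Col-0, and 15 of the 23 that could be tested did not pass. Those that rose were MPL1, NIT2, PR4, AOX1D, AT3G13950 and SUC1, and those that fell were EXLB1 and SCRL7. The test was limma on log2(FPKM + 1), two-sided, with Benjamini-Hochberg adjustment over 19214 genes. It called 11.7% of all genes, 5.5% higher and 6.22% lower, and 8 of the 23, or 34.8%. XTH25 and AT1G72060 were not at 1 FPKM or more in 2 of the seedling libraries and were not tested. The median difference of the 23 was 0.20, against -0.09 for all genes tested, and 15 of the 23 were above 0, against 33.4% of all genes.

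MPL1 stood at 5.16 and 2.59 FPKM in 35S:CO seedlings, against 0.243 and 0.694 FPKM in Col-0 seedlings, a difference of 1.70 ± 0.31 on the log2(FPKM + 1) scale (SE; limma, adjusted p = 0.0342). NIT2 stood at 147 and 94.7 FPKM in 35S:CO, against 41.2 and 32.6 FPKM in Col-0 (1.66 ± 0.24, adjusted p = 0.0233 by limma). Both had been lowest in 35S:CO among dusk petals. PR4 was the most abundant of the 25 in 35S:CO seedlings, at 324 and 194 FPKM, against 86.4 and 94.7 FPKM in Col-0 (1.46 ± 0.25, adjusted p = 0.0343 by limma). AOX1D stood at 2.86 and 1.88 FPKM in 35S:CO, against 0.399 and 0.176 FPKM in Col-0 (1.38 ± 0.19, adjusted p = 0.0179 by limma).

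AT3G13950, which in petals stood near its dusk level at both times in 35S:CO, was at 5.09 and 3.71 FPKM in 35S:CO seedlings, against 2.00 and 1.55 FPKM in Col-0 (0.95 ± 0.17, adjusted p = 0.0324 by limma). SUC1 stood at 42.3 and 35.2 FPKM in 35S:CO, against 26.7 FPKM in both Col-0 libraries (0.51 ± 0.11, adjusted p = 0.0479 by limma). EXLB1 stood at 12.2 and 15.5 FPKM in 35S:CO, against 34.8 and 29.1 FPKM in Col-0 (-1.15 ± 0.15, adjusted p = 0.0154 by limma). SCRL7 stood at 17.0 and 15.3 FPKM in 35S:CO, against 23.2 and 23.7 FPKM in Col-0 (-0.51 ± 0.09, adjusted p = 0.0284 by limma). For all 8 the libraries of 35S:CO and Col-0 did not overlap. EXLB1 and SCRL7 were thus low in 35S:CO in both tissues, whereas MPL1, NIT2, PR4, AOX1D and SUC1 were low in dusk petals and high in seedlings. The petal levels took part in the choice of these transcripts, and the difference between the tissues was not tested.

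**Figure D5:**
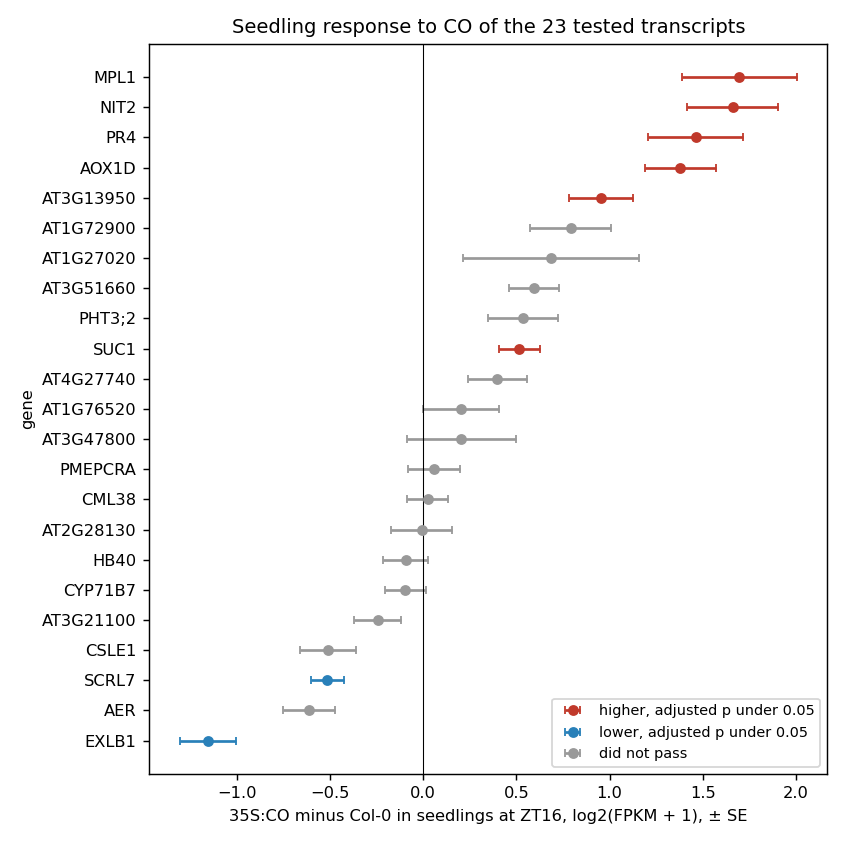
Difference of 35S:CO minus Col-0 in seedlings at ZT16 for the 23 tested transcripts (rows, by size), on the log2(FPKM + 1) scale with its SE from limma (bars). Red points rose and blue points fell at an adjusted p under 0.05, and grey points did not pass.

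The 15 transcripts that did not pass ranged from -0.61 for AER to 0.79 for AT1G72900. AT3G51660 (0.59 ± 0.13, adjusted p = 0.0541 by limma) and AER (-0.61 ± 0.14, adjusted p = 0.0537 by limma) were nearest to the threshold. CML38 was low in seedlings, at 2.11 and 1.96 FPKM in 35S:CO and 1.90 and 2.06 FPKM in Col-0 (0.02 ± 0.11, adjusted p = 0.906 by limma). PMEPCRA was abundant, at 85.8 and 82.8 FPKM in 35S:CO and 92.1 and 71.1 FPKM in Col-0 (0.06 ± 0.14, adjusted p = 0.811 by limma). Over all 23, both 35S:CO libraries were above both of Col-0 for 10, against 19.1% of genes, and below both for 5, against 43.2%.

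By role, in groups drawn up after the values were seen, 2 of the 4 sugar and auxin genes rose in seedlings and the other 2 did not pass, against 5.5% of all genes that rose and 6.22% that fell. Of the 3 tested cell wall genes 1 fell, and of the 4 mitochondrial and redox genes 1 rose. Of the 5 tested genes grouped under defence and stress 2 rose and 1, SCRL7, fell, and of the 7 others 1 rose. Among the relatives, NIT3 (0.88 ± 0.13, adjusted p = 0.0190), AOX1A (1.02 ± 0.17, adjusted p = 0.0285) and XTH24 (2.10 ± 0.14, adjusted p = 0.0032) also rose in 35S:CO seedlings and SUC2 fell (-0.54 ± 0.09, adjusted p = 0.0300), all by limma over all genes. The relatives NIT1, PHT3;1, PHT3;3 and XTH22 and the overlapping genes AT1G60990 and AT1G72070 were tested and did not pass. AOX1B, AOX1C and CML37 were not tested in seedlings.

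These calls rest on few libraries and on their spread. With the spread taken from all 16 libraries of the series, limma called 0 of the 25 (6 at an unadjusted p under 0.05). Without 35S:CO seedling replicate 1, limma called 0 of 20 tested (10 at an unadjusted p under 0.05), and 54 genes in all. Without 35S:CO seedling replicate 2 it called 1, PR4, and 138 genes in all. The direction of all 8 was kept wherever they could be fitted.

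The mutant co-10 was compared with Col-0 in petals over both times together. This contrast is not D itself, but it uses libraries that the rule used. For transcripts listed at 0 in all ZT4 libraries of co-10 and Col-0, such as EXLB1, it follows directly from their D in these genotypes. It is therefore not independent of the choice of the 25. Limma called 0 of the 25, and 2 had an unadjusted p under 0.05, AT4G27740 and AT2G28130. It called 7 of 17876 genes, or 0.0392%, and 855 had an unadjusted p under 0.05. The differences ran from -1.71 ± 0.34 for AT4G27740 (adjusted p = 0.273 by limma) to 0.65, with a median of -0.16, against 0.00 for all genes tested. AT4G27740 was lower in co-10 at each time, at 10.0 and 18.3 FPKM in co-10 against 53.2 and 22.2 FPKM in Col-0 at ZT16. With a pseudocount of 0.1 FPKM its difference was -3.24 (adjusted p = 0.0264 by limma), and it was listed at 0 in both co-10 libraries at ZT4.

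Of the gene lists of pathways and cell types, only the touch and wound list held any of the 25, namely CML38. The cell wall loosening list was drawn up without the cell wall proteins of the 25, so nothing follows from its lack of overlap. Its median D was -0.46 in 35S:CO, -1.34 in co-10 and -1.42 in Col-0. Of the 12 evening-phased clock genes, 7 were among the 471, and their median D was 2.49 in 35S:CO, 2.76 in co-10 and 2.57 in Col-0. The 12 morning-phased clock genes had a median D of -1.48 in 35S:CO, -2.99 in co-10 and -3.08 in Col-0. The 7 evening clock genes among the 471 had a D from 1.98 for LUX to 4.18 for ELF4 in 35S:CO. For all of these but BOA it was smaller than in co-10 and in Col-0, as for FKF1 at 2.23 against 3.86 and 3.65. The others of the 12 did not rise by the rule in co-10 and Col-0. Among them, D was larger in 35S:CO for PRR5, at 2.91 against 1.51 in co-10 and 1.41 in Col-0. It was also larger for ZTL, at 1.29 against 0.15 and -0.07, and for LKP2, at 0.68 against 0.59 and -0.03. GI had a D of -0.10 in 35S:CO, -0.40 in co-10 and -0.07 in Col-0. For CHE it was -1.75 in 35S:CO, -1.43 in co-10 and -1.70 in Col-0. The part of the clock was not tested. Of the dark and sugar starvation genes, 5 were among the 471, and the 20 that passed the filter in petals had a median D of 0.69 in 35S:CO, 0.90 in co-10 and 1.14 in Col-0. The 15 senescence genes, 3 of them among the 471, had a median D of 1.19 in 35S:CO, 1.09 in co-10 and 1.54 in Col-0.

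Against the 5.5% of all genes that rose and the 6.22% that fell in 35S:CO seedlings, 2 of 12 tested evening clock genes rose and 1 fell, and 10 of 12 morning clock genes rose. Of the 17 tested jasmonate genes 6 rose, of the 13 senescence genes 5 rose and 1 fell, and of the 19 dark and sugar starvation genes 2 rose. Of the 14 touch and wound genes 1 rose and 1 fell, of the 11 cell wall loosening genes 1 rose and 2 fell, and of the 8 heat shock genes 1 rose. Of the markers, 3 of 10 petal and 1 of 5 pollen and anther genes rose and 0 of 3 carpel, ovule and seed genes passed by limma (1 at an unadjusted p under 0.05). Between co-10 and Col-0 petals limma called 0 of the 157 tested genes of all lists (12 at an unadjusted p under 0.05, of which 6 are pollen and anther markers).

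The 25 lie on all chromosomes, 11 on chromosome 1, 1 on chromosome 2, 7 on chromosome 3 and 3 each on chromosomes 4 and 5. AT3G21100 and AT3G47800 also overlap a gene on the opposite strand, by 49 and 83 bases at their ends.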

How the data were processed

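The authors deposited 1 table of FPKM with 16 library columns and 32833 loci, of which 285 are chloroplast or mitochondrial. Libraries were made with a stranded mRNA kit, per the labels' protocols, and HISAT2, FastQC and the TAIR10 build are named in the submitters' processing notes; the quantifier, its version, the annotation release and the use of strand were not given in the sources used here. Levels scaled to a library total shift when a few loci, such as ribosomal RNA, take a large share. Positions, annotations and promoters came from TAIR10.1 (RefSeq), in which 32548 nuclear loci matched by locus identifier. As no counts are given, depth was inferred from the steps between low values of 21307 loci with 1 transcript, where 28.1% to 42.3% of low values in petals and 45.7% to 50.3% in seedlings were within 0.02 of a whole number of reads. In 2 libraries that number was most often above 1 (7 for the ZT4 replicate 2 of co-10, 3 for the ZT16 replicate 1 of 35S:CO) for no known reason, so petal depths are uncertain and no counting interval is given.

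Differences are on the log2(FPKM + 1) scale, which understates the change of low genes. Limma 3.58.1 tested each gene that reached 1 FPKM in 2 or more of the libraries fitted (R 4.3.3, statmod 1.5.0), with a trended, robust prior variance, in a fit of 4 seedling libraries and in a fit of 12 petal libraries with 6 group means, both two-sided, with calls at p under 0.05 after Benjamini-Hochberg adjustment over all genes tested. The scripts were tested on simulated data. The labels call the replicates biological but name no plants, so p-values measure the spread between these samples. The petal contrasts that the rule used were not tested. Alternatives were another pseudocount (0.1 FPKM), no filter, quantile normalization, rescaling without ribosomal RNA loci, a replicate block, a fit of all 16 libraries, single replicates and leaving out each library. Overlap of the transcripts with other genes was counted in stretches of 75 bases.

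The members, the rule and the 11 gene lists (evening-phased and morning-phased clock, dark and sugar starvation, heat shock, touch and wound, jasmonate, senescence, cell wall loosening, and markers of petal, of pollen and anther and of carpel, ovule and seed) were chosen with earlier results of these data known. All members are named, since there are fewer than 30; the relatives and the roles were chosen after the members' values were seen.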

Additional observations from a re-analysis of the deposited data

Results flagged for a closer look

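Of the transcripts that passed in seedlings, 5 had both 35S:CO libraries above both Col-0 libraries in seedlings at ZT16 and below both in petals at ZT16. AT1G72900, PHT3;2, AT4G27740 and XTH25 had the same order of libraries, but the first 3 did not pass in seedlings and XTH25 was not tested. The difference of 35S:CO minus Col-0 on the log2(FPKM + 1) scale was 1.70 in seedlings and -2.30 in petals for MPL1, 1.66 and -2.75 for NIT2, 1.46 and -1.71 for PR4, 1.38 and -2.20 for AOX1D, and 0.51 and -1.98 for SUC1. The difference between the tissues was not tested. The petal values took part in choosing these genes, and that choice favoured a negative sign there without fixing it.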

How the results depend on the processing

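The rule for petals chose 25 loci as reported. It chose 200 loci, 19 of the 25 among them, with a pseudocount of 0.1 FPKM, where loci listed at 0 in the morning gain the most, and 56, with 24 of the 25, after rescaling without ribosomal RNA loci. From replicate 2 alone it chose 93 loci, and with 1 library left out 23 to 47. Quantile normalization chose 25, with 23 of the 25. The cause of these shifts was not tested.

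In seedlings the number of all genes called (2252) was 1178 with the replicate block, 696 in the fit of all 16 libraries and 54 to 3129 with 1 library left out. Of the 25, 8 were called as reported, 4 without a filter on low values, 5 with the replicate block, 0 in the fit of all 16 libraries and 0 to 8 with 1 library left out; with either 35S:CO library left out, 3 of the 23 fell under the filter. AOX1D passed in 7 of 8 alternatives, EXLB1 in 7 of 10, SCRL7 and AT3G13950 in 6 of 10, NIT2 in 5 of 10, PR4 in 4 of 10, SUC1 in 3 of 10 and MPL1 in 3 of 8. Of those that did not pass, the sign of AT2G28130 (-0.01) turned to 0.10 with quantile normalization. With 1 library left out, the differences ran from -0.13 to 0.24 for PMEPCRA, -0.22 to 0.031 for CYP71B7, -0.044 to 0.45 for AT1G76520, -0.015 to 0.063 for CML38, -0.19 to 0.17 for AT2G28130 and -0.22 to 0.63 for AT3G47800.

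For co-10 against Col-0 in petals, the 7 genes called were 12 with a pseudocount of 0.1 FPKM, 4 without a filter, 2 with the replicate block, 23 in the fit of all 16 libraries and 0 to 263 with 1 library left out, the 263 without co-10 ZT4 replicate 1. Of the 25, 1 was called with a pseudocount of 0.1 FPKM, AT4G27740, and 0 in each of the other alternatives. The replicate numbers were not shown to pair the samples: deviations of same-numbered libraries correlated at -0.02 in seedlings and at -0.30 to 0.23 over 15 pairs of petal groups. Depth limits the levels near 1 FPKM most, and 2 libraries a group limit every SE.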
